A study of Rattus norvegicus with 47 samples.

Results

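The genes described are the nuclear genes of the mitochondrial respiratory chain, measured as mRNA in rat blood before and after middle cerebral artery occlusion (MCAo). Members were chosen by gene symbol: Nduf for complex I, Sdh for complex II, Uqcr and Cyc1 for complex III, Cox4 to Cox8 for complex IV and Atp5 for complex V. This took 86 of the 20935 gene symbols on the array, 37 for complex I, 4 for complex II, 9 for complex III, 19 for complex IV and 17 for complex V. For 84 of them the table has 1 probe set, and for Ndufs6 and Uqcrb, which have 2, the one with the higher mean signal was used. The symbols are a naming rule, so a few members need a remark. Ndufa4 carries a complex I name but is now placed in complex IV. Atp5s and Atp5sl are not subunits of the ATP synthase. Cox6c-ps1 and Atp5hl1 are pseudogenes in RefSeq, and Cox7a2l2 was set with them by its name as a copy, although RefSeq lists it as protein coding. The probe sets of Ndufa12, Ndufb6, Uqcr10, Cox6b1 and Atp5c1 also name another gene, and those of Ndufa13, Uqcr10 and Atp5h lie on another chromosome than the gene does in RefSeq. Without all of these except Ndufa4, 74 members are left.

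The study followed 8 male SHR rats, a spontaneously hypertensive inbred strain, 16 weeks of age. Each was bled before anesthesia and at 1, 2, 3, 6 and 24 h post MCA occlusion, except that rat 3 has no 6 h sample. The occlusion was transient, made with an intraluminal thread under isoflurane. The thread was withdrawn under a further anesthesia between the 1 h and the 2 h sample. Blood at 1 h was thus taken during the occlusion, and blood from 2 h on after reperfusion. RNA of the whole blood cell pellet was hybridized to Affymetrix RaGene gene arrays, 8 at every time point except 6 h, which had 7. The samples up to 6 h were tail vein blood. The last was taken by heart puncture at 24 h, after an isoflurane overdose. No sham-operated group is among the samples. The occlusion, the reperfusion, the surgery, the anesthesia, the repeated bleeding and the time of day therefore cannot be told apart. Nor can the time, the site of collection and the overdose at 24 h. The signal is the log2 RMA value of a probe set, averaged per time point, and each mean stands with its deposited SD over the 7 or 8 arrays. A change is the mean at a time point minus the mean at 0 h on the log2 scale, so that -1 is a halving. It was called higher or lower where the FDR of limma's moderated test, adjusted over all 27596 probe sets, was below 0.05. The arrays were taken as independent, although the same rats were sampled repeatedly. In blood, fewer cells of a type and less mRNA per cell cannot be told apart. The signal of a probe set depends on its probes, so signals were used to set members beside probe sets of similar signal and not to rank the mRNA of different genes. Whether a signal lay above background was not assessed.

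The respiratory chain sits in the inner mitochondrial membrane. Complex I takes electrons from NADH and complex II from succinate, both pass them to ubiquinone, complex III hands them on to cytochrome c, and complex IV gives them to oxygen. Complexes I, III and IV pump protons, and complex V, the ATP synthase, makes ATP as the protons return. Complex II is built from nuclear genes alone, whereas the other complexes also hold proteins made from mitochondrial DNA. In blood, lymphocytes, monocytes and platelets carry active mitochondria, neutrophils carry few and live mainly on glycolysis, and mature red cells have none.

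Promoters are shown for the member of each complex with the lowest F-test p among those of the 74 members whose promoter sequence was at hand, and for the one with the largest rise among them, because these genes carry the results that follow. Each is the 250 bases before the start of the RefSeq gene in GRCr8, read along the gene's strand. Capitals mark the letters searched on both strands: GCGCATG for NRF1, CCGGAAG for GABPA, an ETS family factor, and AAGATGG for YY1, factors known to act on many respiratory chain promoters. The GABPA letters end in AAG, with which the YY1 letters begin, so both can match in 1 place. The Ndufs1 window (chr9:72073606-72073855, minus strand) holds GABPA letters 199 bases before the start. The Sdhc window is chr13:86098026-86098275, minus strand. The Uqcrc2 window (chr1:184598990-184599239, plus strand) holds GABPA letters 117 and 28 bases and YY1 letters 19 bases before the start. The Cox7c window is chr2:18579171-18579420, minus strand. The window of Atp5a1, Atp5f1a in RefSeq (chr18:73567287-73567536, plus strand), holds GABPA letters 60 bases before the start. The Ndufb3 window is chr9:67623167-67623416, plus strand. None of the letters is in the windows of Sdhc, Cox7c and Ndufb3.
Ndufs1: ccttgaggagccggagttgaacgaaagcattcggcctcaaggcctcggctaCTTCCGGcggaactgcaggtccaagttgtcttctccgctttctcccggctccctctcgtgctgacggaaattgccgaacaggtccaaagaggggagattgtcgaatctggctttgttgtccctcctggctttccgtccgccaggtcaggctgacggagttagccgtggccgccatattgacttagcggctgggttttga
Sdhc: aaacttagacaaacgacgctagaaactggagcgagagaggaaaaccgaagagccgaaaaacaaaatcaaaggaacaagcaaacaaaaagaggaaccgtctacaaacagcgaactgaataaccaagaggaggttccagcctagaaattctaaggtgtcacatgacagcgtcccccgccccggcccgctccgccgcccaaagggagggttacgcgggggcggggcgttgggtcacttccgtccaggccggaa
Uqcrc2: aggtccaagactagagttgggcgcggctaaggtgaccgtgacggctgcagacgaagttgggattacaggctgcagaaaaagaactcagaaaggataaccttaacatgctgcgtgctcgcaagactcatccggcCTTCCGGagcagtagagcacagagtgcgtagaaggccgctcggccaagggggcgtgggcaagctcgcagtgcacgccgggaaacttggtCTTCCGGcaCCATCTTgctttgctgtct
Cox7c: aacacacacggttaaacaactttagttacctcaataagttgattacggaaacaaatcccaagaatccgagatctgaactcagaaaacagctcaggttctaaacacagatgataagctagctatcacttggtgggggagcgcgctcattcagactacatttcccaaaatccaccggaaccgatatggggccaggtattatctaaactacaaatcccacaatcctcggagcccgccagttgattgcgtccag
Atp5a1: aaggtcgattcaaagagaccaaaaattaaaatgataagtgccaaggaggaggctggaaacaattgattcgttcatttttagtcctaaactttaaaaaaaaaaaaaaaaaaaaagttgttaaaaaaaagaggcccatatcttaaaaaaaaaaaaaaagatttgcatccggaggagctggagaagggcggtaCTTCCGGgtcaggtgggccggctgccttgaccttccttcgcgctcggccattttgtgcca
Ndufb3: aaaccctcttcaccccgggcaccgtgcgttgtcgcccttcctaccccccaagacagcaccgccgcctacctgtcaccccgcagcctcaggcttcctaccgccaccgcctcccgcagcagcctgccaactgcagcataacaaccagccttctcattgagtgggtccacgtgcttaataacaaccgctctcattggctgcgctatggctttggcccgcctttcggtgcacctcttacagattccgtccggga

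A promoter sequence was at hand for 73 members. The GABPA letters were in 19 of them (26.0%), beside 7.27% of all 33469 rat promoters of this length. The NRF1 letters were in 12 (16.4%) beside 3.26%, and the YY1 letters in 4 (5.48%) beside 4.62%. Complex I had the GABPA letters in 7 of 34 promoters and complex III in 3 of 6. Members with the GABPA letters had a median change of -0.11 at 1 h and -0.02 at 24 h, and the 54 without them -0.15 and -0.16. With the NRF1 letters it was -0.11 and -0.16, and -0.15 and -0.12 for the 61 without, and with the YY1 letters -0.19 and -0.23, and -0.14 and -0.12 for the 69 without, so no direction was shared by the motifs. These are descriptions of letters in a window, and no binding was measured. The factors were themselves measured. Gabpa was lower at all 5 time points, by -0.40 at 1 h, -0.55 at 2 h and -0.22 at 24 h (FDR 0.015 at 24 h), and Yy1 was lower at 1, 2 and 6 h, with -0.30 at 2 h (FDR 0.00015). Nrf1 stayed between -0.08 and 0.03 of its 0 h level, with a lowest FDR of 0.35.

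Across the members, lower calls outnumbered higher calls at each time point. At 1 h, 27 of the 86 (31.4%) were lower and 4 (4.65%) were higher than at 0 h, where 15.4% of all probe sets were lower and 21.7% were higher. At 2 h it was 27 lower and 3 higher (18.6% and 21.7% of all probe sets), at 3 h 28 lower and 4 higher (19.2% and 27.3%), and at 6 h 23 lower and 7 higher (19.3% and 22.5%). At 24 h, 21 were lower and 4 higher, beside 13.9% and 17.4% of all probe sets. The scaling of the arrays bears on these counts. Quantile normalization was run on the time point means of the RMA signal. The deposited SDs were kept, since single arrays were not used, so its FDRs join changed means with unchanged spread. After quantile normalization of the means, the share of members lower was 24.4% at 1 h beside 13.9% of all probe sets, but 17.4% beside 17.8% at 3 h and 10.5% beside 11.4% at 24 h, which is no more than the background. The signal of a probe set bears on the shares too. The interquartile range of the members' mean signal, 7.36 to 9.44, holds 42 members and 6430 of all probe sets. Of these 42 members 16, 19, 17, 14 and 15 were lower in order of time, which is 38.1%, 45.2%, 40.5%, 33.3% and 35.7%, beside 32.1%, 36.6%, 37.4%, 36.7% and 29.5% of the 6430. After quantile normalization it was 28.6%, 28.6%, 19.0%, 16.7% and 14.3% beside 22.9%, 28.3%, 27.9%, 27.5% and 19.1%. The shares of lower calls thus lay near those of probe sets of the same signal range, above or below them by time and scaling, and nothing particular to the members is read from them. Of the 42, none was higher at 1 and 2 h and 1 at each later time, where 15.8% to 21.9% of the 6430 were. In the F-test over the 6 time points 48 members passed (55.8%), beside 55.5% of all probe sets. In the shared range of signal 28 of the 42 passed (66.7%), beside 75.8%.

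**Figure D1:**
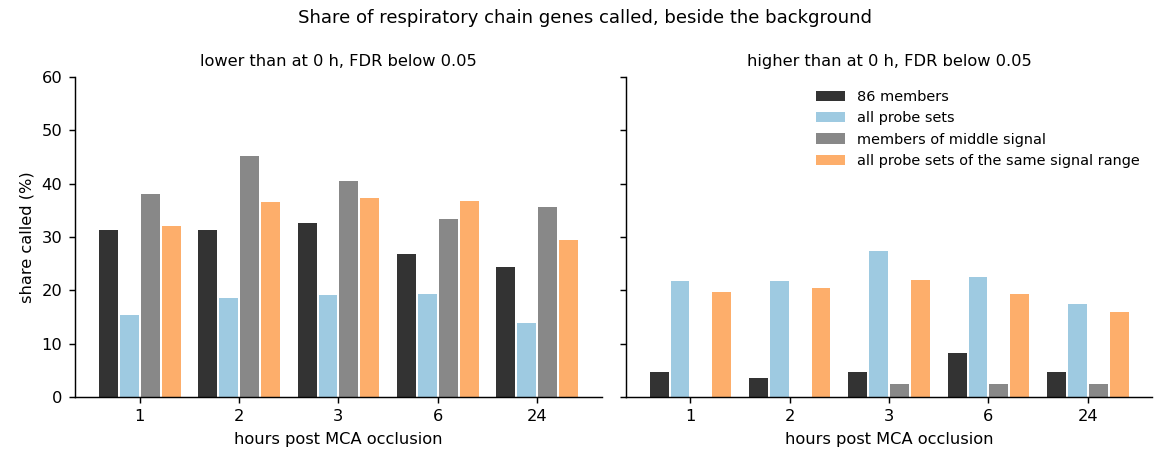
Share of probe sets called lower (left) or higher (right) than at 0 h in percent, at each time post MCA occlusion, for the 86 members, all 27596 probe sets, the 42 members within the members' interquartile range of signal (middle signal) and the 6430 probe sets within the same range. At 1 h 31.4% of the members were lower beside 15.4% of all probe sets, and in the range of signal 38.1% beside 32.1%.

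The changes were small. The median member changed by -0.12 or -0.13 up to 6 h and by -0.08 at 24 h, while the median of all probe sets moved by 0.04 to 0.07. After quantile normalization of the means the members' median was -0.07 at 1 and 6 h, -0.09 at 2 and 3 h and -0.05 at 24 h, and after centring each time point on its median over all probe sets it lay between -0.17 and -0.13. The members ranged from -0.71 to 0.38 at 1 h and from -0.70 to 1.12 at 6 h. Over the 5 later time points 46 members (53.5%) were lower at least once, 10 (11.6%) were higher at least once, Atp5b was both, and 31 (36.0%) were never called. Of all probe sets 27% were lower at least once, 41.6% were higher at least once and 32.7% were never called. The contrast in lower calls was smaller among probe sets of similar signal. Of the 42 members of middle signal 66.7% were lower at least once, beside 49.98% of the 6430 probe sets in that range. Higher at least once were 4.76% beside 33.8%, and never called were 28.6% beside 18.8%. The number lower at every time point was 9 (10.5%), near the 8.43% of all probe sets, and 6 of the 42 members of middle signal (14.3%) beside 19.3% in that range. The 9 were Ndufs3, Ndufs4, Ndufv2, Ndufb10, Uqcrc2, Cox7c, Atp5a1, Atp5c1 and Atp5d. After quantile normalization Ndufs3, Atp5a1 and Atp5c1 were the ones left. Cox6a2 was the 1 member higher at every time point (1.16%, beside 6.71% of all probe sets), and its call at 6 h was lost after centring and after quantile normalization. Quantile normalization removed 46 of the 126 lower calls of members at the 5 time points and 6 of the 22 higher calls. Centring moved every change by -0.05 to -0.03, alike at a time point, so it could take away higher calls only, and 10 of the 22 were lost. After centring, 3 members were higher and 27 lower at 6 h, and after quantile normalization of the means 6 were higher and 9 lower at 24 h, so the balance of calls at these times moved with the scaling.

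**Figure D2:**
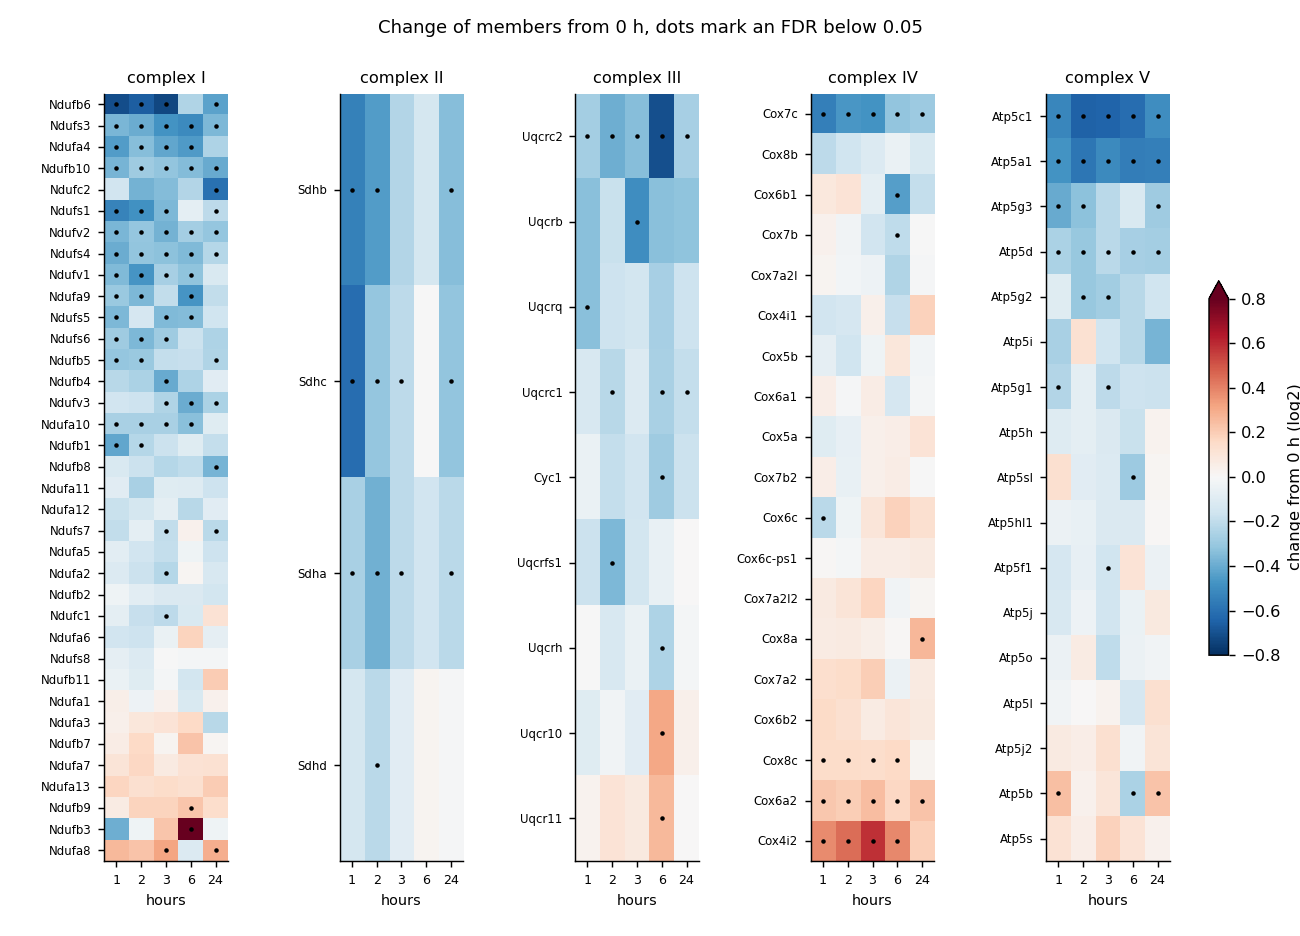
Change of the members from 0 h, without 1 of complex I that is not reported by name (log2, blue lower and red higher, colours limited at 0.8) at 1, 2, 3, 6 and 24 h post MCA occlusion, by complex and ordered by the mean of the 5 changes. Black dots mark calls at an FDR below 0.05, and 9 members carry dots on 5 blue cells.

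A list of 21 main subunits was set beside the other members. It held catalytic and cofactor-bearing subunits and others that are neither, such as Ndufs3 of complex I, Uqcrc1 and Uqcrc2 of complex III, Cox4i1 and Cox5a of complex IV and Atp5c1 of complex V. Of these 21 genes, 11, 14, 11, 10 and 11 were lower in order of time from 1 to 24 h, and 9, 11, 6, 5 and 5 after quantile normalization, with Atp5b alone higher, at 1 and 24 h. That is 52.4%, 66.7%, 52.4%, 47.6% and 52.4%, and after quantile normalization 42.9%, 52.4%, 28.6%, 23.8% and 23.8%. Of the 6430 probe sets of middle signal 32.1%, 36.6%, 37.4%, 36.7% and 29.5% were lower. After quantile normalization it was 22.9%, 28.3%, 27.9%, 27.5% and 19.1% of them, near the main subunits at 3, 6 and 24 h. The main subunits ranged from 6.99 to 12.02 in signal, so not all lay in that range. Of the other 65 members, 16, 13, 17, 13 and 10 were lower, and 12, 11, 9, 12 and 4 after quantile normalization. That is 24.6%, 20.0%, 26.2%, 20.0% and 15.4%, and after quantile normalization 18.5%, 16.9%, 13.8%, 18.5% and 6.15%. The median change of the main subunits was -0.26 at 1 h and -0.31 at 2 h, and that of the others -0.09 and -0.08. The main subunits also had a higher median signal, 8.90 against 8.07, and the difference between both sets was not tested. Ranked by signal, 13 of the 28 members in the middle of the order were lower at 1 h, beside 7 of the 29 at its low end and 7 of the 29 at its high end.

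Complex I had 15 of 37 members lower at 1 h, 14 at 2 h, 17 at 3 h and later 11, with a median change between -0.20 at 3 h and -0.14 at 6 h. After quantile normalization 12, 10, 10, 7 and 5 were lower in order of time. The shares of all probe sets given above are the background of these and the following counts. Those of the signal range 7.36 to 9.44 are a background only for genes of that signal. The median signal was 12.35 for the mitochondrial DNA probe sets, 10.88 for the cytosolic ribosomal proteins and 6.90 for the assembly factors. No share of matched signal was computed for these lists. Ndufs1, the largest subunit and a carrier of iron-sulfur clusters, had the lowest F-test p of the members on a probe set of their own (1.4e-08). Its mean signal was 9.18 ± 0.14 (SD) at 0 h and, in order of time from 1 to 24 h, 8.64 ± 0.18, 8.70 ± 0.12, 8.82 ± 0.12, 9.10 ± 0.19 and 8.97 ± 0.19. The fall of Ndufs1 was deepest at 1 h, to 0.69 of the 0 h level (change -0.54, SE 0.08, FDR 9e-07), and the level at 6 h was above that at 3 h by 0.28 (FDR 0.036). Its call at 24 h was lost after quantile normalization (FDR 0.21).

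The iron-sulfur (Ndufs) and flavoprotein (Ndufv) names of complex I held many of these calls. Of the 8 Ndufs genes 6 were lower at 1 h, 5 at 2 h, 7 at 3 h and later 4, and after quantile normalization 5, 5, 4, 3 and 1 in order of time, with Ndufs3 left at 24 h. Ndufs3, a core subunit, was lower throughout, from -0.36 at 1 h to -0.51 at 6 h (FDR 0.00028 at 6 h). Ndufs4, an accessory subunit needed for a stable complex, was lower throughout, from -0.40 at 1 h (FDR 0.0002) to -0.23 at 24 h, where the call was lost after quantile normalization (FDR 0.13). Its probe set has no position in the table. Ndufs7, which holds the last iron-sulfur cluster before ubiquinone, was lower at 3 h (-0.19) and at 24 h (-0.21, FDR 0.039), and both calls were lost after quantile normalization (FDR 0.45 and 0.28). Ndufs8, another iron-sulfur subunit, lay between -0.11 and 0.00 with no call. Ndufv1, which binds NADH and flavin, fell most at 2 h, by -0.47 (FDR 3e-05), and was -0.12 at 24 h (FDR 0.30). Ndufv2, its partner, was lower throughout, between -0.27 and -0.38, and lost the calls at 2 and 6 h after quantile normalization (FDR 0.051 and 0.14).

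The Ndufa names held both lower and higher calls, and a difference from the Ndufs and Ndufv names was not tested. Of the 13 Ndufa genes 3 were lower at 1, 2, 3 and 6 h and none at 24 h. Ndufa10 was lower up to 6 h, by -0.33 there (FDR 4.5e-05), and rose again by 0.23 from 6 to 24 h (FDR 0.0067). Ndufa9 was lowest at 6 h, by -0.47 (FDR 0.00025). Ndufa4 was lower from 1 to 6 h, by -0.45 at 1 h and at 6 h. Ndufa8 went the other way, with 0.32 at 3 h (FDR 0.021) and 0.29 at 24 h (FDR 0.047), but -0.11 at 6 h (FDR 0.47). The call at 24 h was lost after centring (FDR 0.10).

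The 11 Ndufb genes held both the deepest fall and the largest rise of all members. The probe set of Ndufb6, which also names Topors, was lower by -0.66 to -0.73 up to 3 h (FDR 4.6e-06 at 3 h) and by -0.43 at 24 h. It was -0.24 at 6 h (FDR 0.13), and which of both genes gave the signal cannot be told. Ndufb3 had a mean signal of 9.06 ± 0.46 (SD) at 0 h and, in order of time from 1 to 24 h, 8.67 ± 0.49, 9.02 ± 0.26, 9.28 ± 0.36, 10.18 ± 0.47 and 9.02 ± 0.38. The 6 h mean of Ndufb3 was the 1 that differed from 0 h, at 2.18 times the 0 h level (change 1.12, SE 0.20, FDR 1e-05). The rise from 3 to 6 h was 0.90 (FDR 0.0037) and the fall from 6 to 24 h -1.16 (FDR 1.5e-05). Its SD was wide, 0.26 to 0.49 on the log2 scale, and single rats were not analysed here. Ndufb10 was lower throughout, between -0.29 and -0.40, and lost the calls at 2, 3 and 6 h after quantile normalization (FDR 0.10 to 0.22). Ndufb1 was lower only at 1 and 2 h, with -0.42 at 1 h, and the call at 2 h was lost in the same way (FDR 0.38). Ndufb9 was higher at 6 h alone, by 0.22 (FDR 0.036), and not after centring (FDR 0.076). Ndufc2 had its 1 call at 24 h, at -0.60 (FDR 0.0061).

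**Figure D3:**
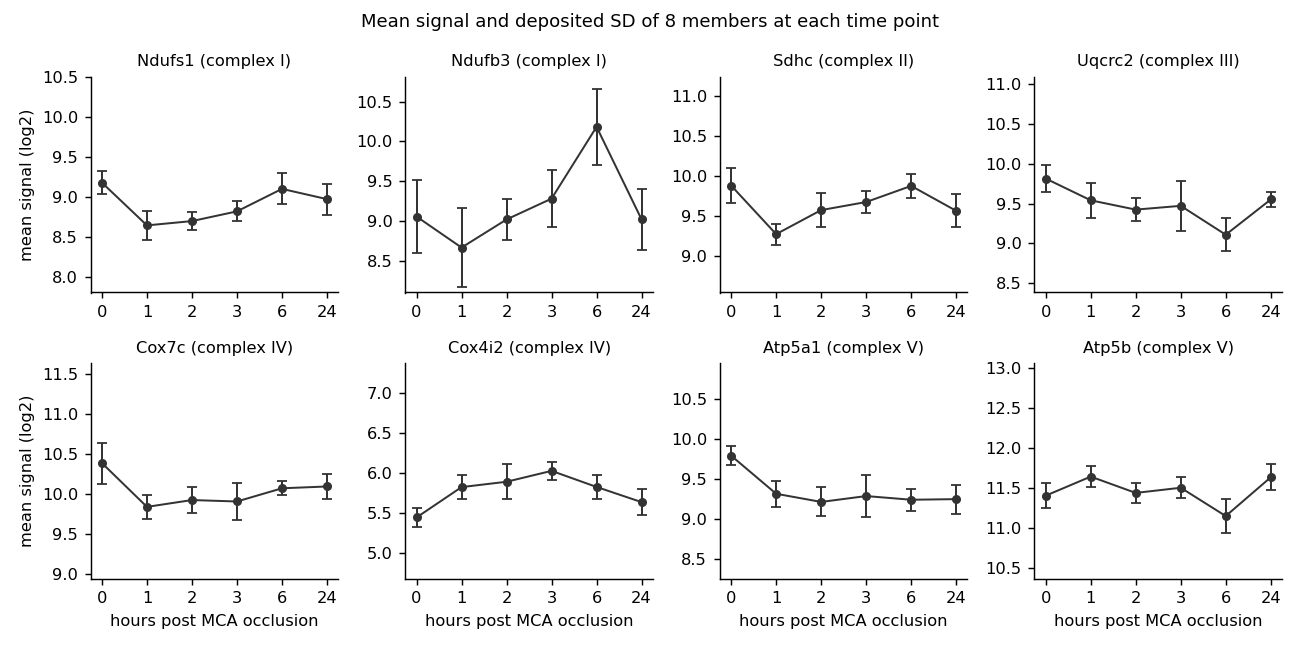
Mean log2 signal with the deposited SD as bars at 0, 1, 2, 3, 6 and 24 h post MCA occlusion for 8 members, 8 arrays at each time point and 7 at 6 h, with axes of equal span. Ndufs1 and Sdhc were lowest at 1 h and back near 0 h at 6 h, Uqcrc2 was lowest at 6 h, Ndufb3 peaked at 6 h, Cox4i2 at 3 h, and Atp5a1 stayed low while Atp5b did not.

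Complex II had its calls at 1 and 2 h and, less firmly, at 3 and 24 h. Of its 4 genes 3 were lower at 1 h, all at 2 h, 2 at 3 h, none at 6 h and again 3 at 24 h, and its median change was -0.40, -0.35, -0.21, -0.07 and -0.27 in that order, with 0.01 in place of -0.07 after quantile normalization. The scaling bears on these counts, since 2, 3, 0, 0 and 1 of the 4 were lower after quantile normalization. Sdhc, a membrane anchor that binds heme and ubiquinone, had a mean signal of 9.88 ± 0.21 (SD) at 0 h and, in order of time from 1 to 24 h, 9.27 ± 0.13, 9.57 ± 0.21, 9.68 ± 0.13, 9.88 ± 0.15 and 9.57 ± 0.21. Sdhc fell to 0.66 of its 0 h level at 1 h (change -0.61, SE 0.09, FDR 4.5e-07), came back by 0.30 from 1 to 2 h (FDR 0.021) and fell again by 0.31 from 6 to 24 h (FDR 0.01). At 3 h it was just within the threshold, at -0.21 with an FDR of 0.0498, and outside it after quantile normalization (FDR 0.089). Sdhb, the iron-sulfur subunit, was -0.54 at 1 h (FDR 0.00024), -0.14 at 6 h (FDR 0.34) and -0.34 at 24 h (FDR 0.021, and 0.11 after quantile normalization). Sdha, the flavoprotein that oxidizes succinate, was lowest at 2 h, by -0.39 (FDR 6.4e-05), and its calls at 1, 3 and 24 h were lost after quantile normalization (FDR 0.053, 0.17 and 0.17). Sdhd, the other anchor, was lower at 2 h alone, by -0.22 (FDR 0.026), a call that quantile normalization removed (FDR 0.28).

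Complex III reached its most calls at 6 h, with 4 of 9 members lower and 2 higher, after 2 or 3 lower and none higher at 1, 2 and 3 h. The 2 lower at 24 h were both lost after quantile normalization. Uqcrc2, a core protein on the matrix side, had a mean signal of 9.81 ± 0.17 (SD) at 0 h and, in order of time from 1 to 24 h, 9.54 ± 0.22, 9.42 ± 0.14, 9.47 ± 0.31, 9.11 ± 0.21 and 9.55 ± 0.10. Uqcrc2 was lower throughout and lowest at 6 h, at 0.61 of the 0 h level (change -0.70, SE 0.10, FDR 2e-07). After quantile normalization the calls of Uqcrc2 at 1 and 24 h were lost (FDR 0.070 and 0.14). It fell by 0.36 from 3 to 6 h (FDR 0.028) and rose by 0.44 from 6 to 24 h (FDR 0.0011). Uqcrc1, its partner, was lower at 2, 6 and 24 h, by -0.26 at 6 h (FDR 0.0061), and none of these calls held after quantile normalization (FDR 0.17 to 0.44). Cyc1, the cytochrome c1 heme protein, was lower at 6 h alone, by -0.28 (FDR 0.0066, and 0.055 after quantile normalization), and Uqcrfs1, the Rieske iron-sulfur protein, at 2 h alone, by -0.36 (FDR 0.00032). Uqcrb was lower at 3 h, by -0.50 (FDR 0.0027). The small subunits Uqcr10 and Uqcr11 were higher at 6 h, by 0.31 and 0.26, with an FDR of 0.024 and 0.036, and neither call held when the spread came from the 0 and 6 h arrays alone (FDR 0.053 and 0.079). The call of Uqcr11 was also lost after centring (FDR 0.069) and that of Uqcr10 after quantile normalization (FDR 0.12).

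Complex IV had a median change between -0.01 and 0.05 at all times and 3 members higher at 1, 2, 3 and 6 h. Its median was too near 0 to have a sign, since it turned at 2 h after quantile normalization and at 6 and 24 h after centring. Its catalytic core is made from mitochondrial DNA, so the nuclear members are the subunits around it. Cox4i1 and Cox5a, subunits that regulate activity, and Cox5b, which binds zinc, had no call, with changes of -0.18 to 0.18 for Cox4i1, -0.10 to 0.11 for Cox5a and -0.16 to 0.09 for Cox5b. The 1 member of complex IV lower throughout was Cox7c, a small membrane subunit. Its mean signal was 10.38 ± 0.26 (SD) at 0 h and, in order of time from 1 to 24 h, 9.84 ± 0.15, 9.92 ± 0.16, 9.90 ± 0.23, 10.07 ± 0.09 and 10.09 ± 0.15. The fall of Cox7c was largest at 1 h, to 0.68 of the 0 h level (change -0.55, SE 0.09, FDR 5.1e-06), and its call at 24 h was lost after quantile normalization (FDR 0.063).

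The 3 members of complex IV that were higher at 1, 2, 3 and 6 h, 15.8% of its 19 and thus a smaller share than among all probe sets, were isoforms known from other tissues. All 3 lay at the low end of the members by signal. The mean signal over all times was 5.77 for Cox4i2, 6.97 for Cox6a2 and 5.92 for Cox8c, beside a median of 6.65 over all probe sets. Whether these isoforms were expressed in blood above background was not assessed. Cox4i2, the lung and hypoxia isoform of subunit 4, had a mean signal of 5.44 ± 0.11 (SD) at 0 h and, in order of time from 1 to 24 h, 5.82 ± 0.15, 5.89 ± 0.22, 6.03 ± 0.11, 5.82 ± 0.15 and 5.63 ± 0.16. Cox4i2 was higher from 1 to 6 h, most at 3 h (change 0.58, SE 0.08, FDR 2.6e-08), and at 24 h its change was 0.19 (FDR 0.052). Cox6a2, the heart and muscle isoform of subunit 6a, was higher at all 5 time points, between 0.16 and 0.24, with the lowest FDR at 3 h (0.0016). Its call at 6 h (FDR 0.042) was lost after centring (FDR 0.11) and after quantile normalization (FDR 0.061). Cox8c, a testis isoform of subunit 8, was higher up to 6 h, between 0.14 and 0.16, and all 4 calls were lost after centring (FDR 0.090 to 0.21) and after quantile normalization (FDR 0.34 to 0.53). The common isoforms Cox6a1 and Cox7a2 had no call, with changes of -0.13 to 0.06 and -0.04 to 0.19. Cox8a, the common isoform of subunit 8, was higher at 24 h alone, by 0.26 (FDR 0.011). Cox6b1, on a probe set that also names another locus, was lower at 6 h alone, by -0.44 (FDR 0.0044), Cox7b likewise by -0.20 (FDR 0.042), and Cox6c at 1 h by -0.21 (FDR 0.040, and 0.11 after quantile normalization). Cox6b2, another testis isoform, Cox7a2l, a supercomplex factor, and Cox8b, a muscle isoform, had no call, with changes of 0.07 to 0.16, -0.24 to 0.02 and -0.21 to -0.05. For Cox8b the change of -0.21 at 1 h had an FDR of 0.058, and it passed after centring, after quantile normalization and without the lowest 25% of probe sets (FDR 0.022, 0.012 and 0.0496).

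Complex V held 3 of the 9 members lower at every time point, all in the F1 part that makes ATP. Of its 17 members 5, 5, 6, 5 and 4 were lower in order of time, and 4, 4, 2, 4 and 3 after quantile normalization, which left Atp5a1 and Atp5c1 at 3 h. Atp5c1, the rotating gamma subunit, had the lowest F-test p of all members (3.6e-14), ranked 818 among all probe sets, but its probe set also names Taf3. Its changes were -0.52, -0.65, -0.64, -0.61 and -0.50 at 1, 2, 3, 6 and 24 h, with an FDR of 2.4e-12 at 2 h. Atp5a1, the alpha subunit, on a probe set of its own, had a mean signal of 9.79 ± 0.12 (SD) at 0 h and, in order of time from 1 to 24 h, 9.32 ± 0.16, 9.21 ± 0.18, 9.29 ± 0.27, 9.24 ± 0.13 and 9.25 ± 0.18. All later means of Atp5a1 lay below 0 h and close together, with the largest change at 2 h, to 0.67 of the 0 h level (change -0.58, SE 0.09, FDR 6e-07). Atp5d, the delta subunit, was lower throughout, between -0.22 and -0.30, with the call at 3 h lost after quantile normalization (FDR 0.076).

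Atp5b, the catalytic beta subunit that alternates with alpha in the same ring, took another course. Its mean signal was 11.41 ± 0.16 (SD) at 0 h and, in order of time from 1 to 24 h, 11.64 ± 0.13, 11.44 ± 0.12, 11.50 ± 0.13, 11.15 ± 0.22 and 11.64 ± 0.16. Atp5b was higher at 1 h by 0.24 (FDR 0.012), lower at 6 h by -0.26 (FDR 0.0081) and higher at 24 h by 0.23 (FDR 0.019), and the step from 6 to 24 h was 0.49 (FDR 5.5e-06). Both higher calls of Atp5b were lost after centring (0.19 at each, FDR 0.052 and 0.060). The difference between the courses of Atp5a1 and Atp5b was not tested. The 3 genes for the c ring, Atp5g1, Atp5g2 and Atp5g3, encode the same mature protein. Atp5g3 was lower at 1, 2 and 24 h, by -0.40 at 1 h (FDR 0.001), Atp5g2 at 2 and 3 h, by -0.30 at 2 h (FDR 0.0085), and Atp5g1 at 1 and 3 h, by -0.23 at 1 h (FDR 0.010). After quantile normalization all calls of Atp5g2 (FDR 0.096 and 0.12) and Atp5g1 (FDR 0.15 and 0.25) were lost, and that of Atp5g3 at 24 h (FDR 0.10). Atp5f1, of the peripheral stalk, was lower at 3 h, a call also lost after quantile normalization (FDR 0.15). Most of the stalk and membrane members had no call, among them Atp5h, Atp5i, Atp5j, Atp5j2, Atp5l and Atp5o.

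**Figure D4:**
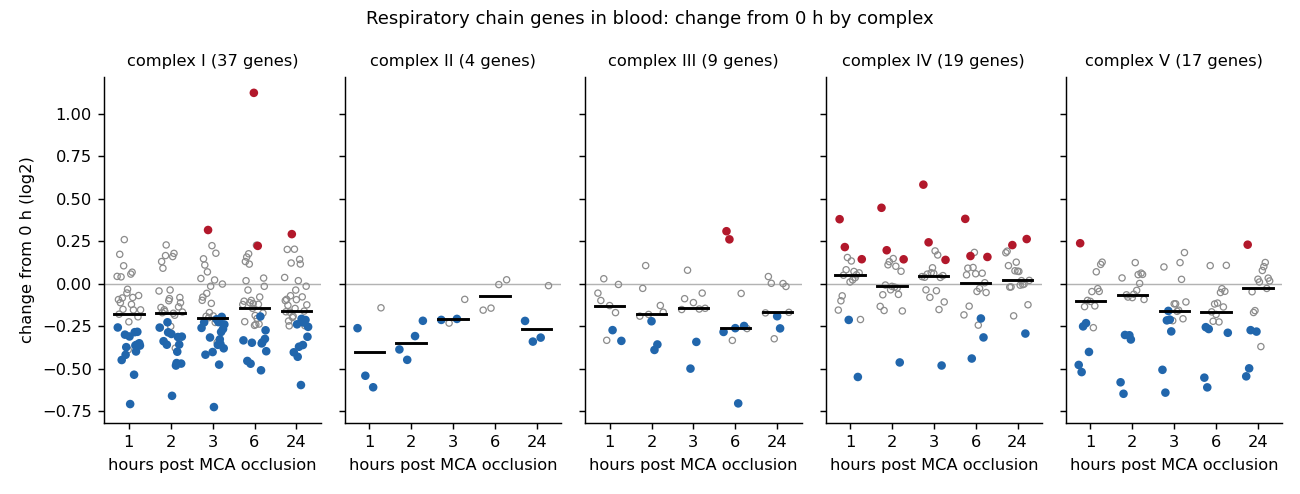
Change of every member from 0 h (log2) at 1, 2, 3, 6 and 24 h post MCA occlusion, 1 point for each gene, filled blue where lower and red where higher at an FDR below 0.05, open otherwise, with the median as a black bar. The median of complex II went from -0.40 at 1 h to -0.07 at 6 h, and that of complex IV stayed between -0.01 and 0.05.

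Between neighbouring time points few members changed. From 1 to 2 h Sdhc rose and none fell (4.66% and 4.11% of all probe sets), and from 2 to 3 h 1 member rose and none fell (1.9% and 1.62%). From 3 to 6 h Ndufs1, Ndufb3, Ndufb6, Uqcr10 and Atp5f1 rose and Ndufa8, Uqcrc2 and Atp5b fell, which is 5 and 3 of 86 where 2.34% and 2.44% of all probe sets changed. From 6 to 24 h 9 rose and 3 fell (10.2% and 8.68%). The 9 were Ndufa8, Ndufa10, Ndufb11, Ndufc1, Uqcrc2, Uqcrh, Cox8a, Atp5b and Atp5sl, and the 3 were Ndufb3, Ndufs7 and Sdhc.

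The subunits made from mitochondrial DNA were on 8 probe sets, which are no members. In order of time, 6, 2, 7, 7 and 6 of the 8 were lower, and none was higher. After quantile normalization 5, 2, 6, 5 and 4 were lower. Their median change was -0.21, -0.12, -0.28, -0.25 and -0.21. ND6, the complex I subunit read from the light strand, changed most, by -0.55, -0.36, -0.54, -0.57 and -0.41, with an FDR of 7.8e-05 at 6 h. COX1, the catalytic subunit of complex IV, had no call and lay between -0.09 and -0.01. The other probe sets, for ND2, ND5, CYTB, COX2, ND4 with ND4L, and ND3 with ATP8, COX3 and ATP6, reached -0.20 to -0.34 at their lowest.

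Other mitochondrial gene lists had more lower than higher calls at 1 h, and most of them at the later times. Of 38 assembly factors 14, 16, 18, 20 and 11 were lower in order of time. Lyrm7, which serves the Rieske protein of complex III, was lower throughout, between -0.84 and -0.93, and Ndufaf7, a complex I factor, by up to -0.74, at 6 h (FDR 2.2e-06). Pet100, a complex IV factor, was the 1 assembly factor higher, at 2 h (0.39, FDR 0.020). Of 9 other subunits and electron carriers 4, 4, 2, 0 and 2 were lower and 2, 2, 2, 1 and 1 higher in order of time. After centring 5, 4, 4, 1 and 2 were lower and 0, 1, 1, 0 and 1 higher. After quantile normalization 3, 3, 2, 0 and 0 were lower and 0, 2, 1, 1 and 1 higher. The balance of calls in this list at 3, 6 and 24 h thus moved with the scaling. Etfb in this list, which brings electrons from fat oxidation, was at -0.74 at 1 h (FDR 1.8e-07). Usmg5, a small ATP synthase subunit, reached -0.50 at 3 h (FDR 0.044), while Ndufa4l2, a hypoxia-linked relative of Ndufa4, reached 0.25 at 2 h, and Cyct, the testis cytochrome c, 0.24 at 3 h.

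The genes that keep mitochondrial DNA expressed had a median change of -0.31 at 1 h and -0.33 at 6 h. Of 22 such genes 14, 12, 12, 14 and 11 were lower in order of time. Tfam, which packs and transcribes mitochondrial DNA, changed by -0.78, -0.98, -1.18, -0.98 and -0.57, with an FDR of 7e-14 at 3 h. Tfb1m, which methylates the small ribosomal RNA, had a like course and was lowest at 3 h, by -1.19 (FDR 7.2e-11). Mterf1, a termination factor, was higher at 6 h by 0.42 (FDR 0.0058), and Esrra, a nuclear receptor that drives these genes, at 3 h by 0.27 (FDR 1e-05). Of 71 mitochondrial ribosomal proteins 34, 38, 41, 36 and 28 were lower at 1, 2, 3, 6 and 24 h, and 25, 36, 34, 32 and 20 after quantile normalization. Mrps14 reached -1.11 at 2 h and Mrps15 -0.90 at 3 h, whereas Mrps6 was higher by 1.81 at 6 h (FDR 2.9e-18) and Mrpl45 by 0.70 at 2 h.

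Of 15 citrate cycle genes 9, 8, 9, 9 and 7 were lower in order of time, and 7, 5, 5, 8 and 4 after quantile normalization. Idh3a, of the NAD-linked isocitrate dehydrogenase, was lowest at 2 h, by -0.76 (FDR 2.6e-12), and Fh, fumarase, by -0.59, also at 2 h. Dlst, of the oxoglutarate dehydrogenase, was higher at 1 h (0.45) and 24 h (0.52, FDR 1.5e-05), and Pdha1, of pyruvate dehydrogenase, at 3 h (0.53). Of 15 carriers and pores 7, 7, 6, 7 and 4 were lower, and 5, 7, 4, 6 and 2 after quantile normalization. Slc25a4, an ADP/ATP carrier, and Immt, which shapes the cristae, were lowest at 2 h, by -0.75 and -0.74, while Ucp3, an uncoupling protein, was higher throughout, by up to 0.37, and Tomm22 at 2 h by 0.28. For comparison, 96 cytosolic ribosomal protein genes had 35, 53, 64, 73 and 24 lower at the 5 times. Their median change reached -0.41 at 6 h, and among them Rpl22l1 and Rps15al4 were lowest, by -0.98 at 3 h and -0.92 at 6 h, and Rpl3l and Rpl39l were higher at 6 h, by 0.35 and 0.26.

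Blood cell markers moved over the same time points. Of 11 neutrophil markers 10 were higher at 1 h and all 11 at 2, 3 and 6 h, with median changes of 0.84, 1.40, 1.31, 1.59 and 0.81 in order of time. Their summed linear signal went from 14920 at 0 h to 45835 at 6 h and was 25109 at 24 h. Of 13 T cell markers 12 were lower at 1 h and all at the later times, with a median of -0.52 at 1 h and -1.18 at 6 h, and a summed signal between 6505 and 15008. Of 10 B cell markers 8 to 10 were lower, with a median of -2.13 at 3 h and -0.53 at 24 h, and a summed signal between 2829 and 10579. NK cell markers had 2 of 8 lower at 1 h and 7 at 24 h, and 1 higher at 1, 2 and 6 h (summed signal 4788 to 8600). Monocyte markers moved both ways, with 6 of 8 lower and 1 higher at 1 h, 4 lower and 3 higher at 2, 3 and 6 h, and 4 lower and none higher at 24 h (12879 to 16432). Platelet markers had 3 of 6 higher at 1 h and at 24 h (20623 to 23956), and erythroid markers 4 of 10 higher at 1 h, 5 at 24 h, and 3 lower at 6 h (49219 to 56224). Il1r2 in the neutrophil list and Cd79a, Cd79b, Ms4a1, Ebf1, Bank1 and Fcmr in the B cell list are among the genes the study itself picked on these arrays. The part of the change in blood cell markers in the results for the respiratory chain genes was not tested.

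**Figure D5:**
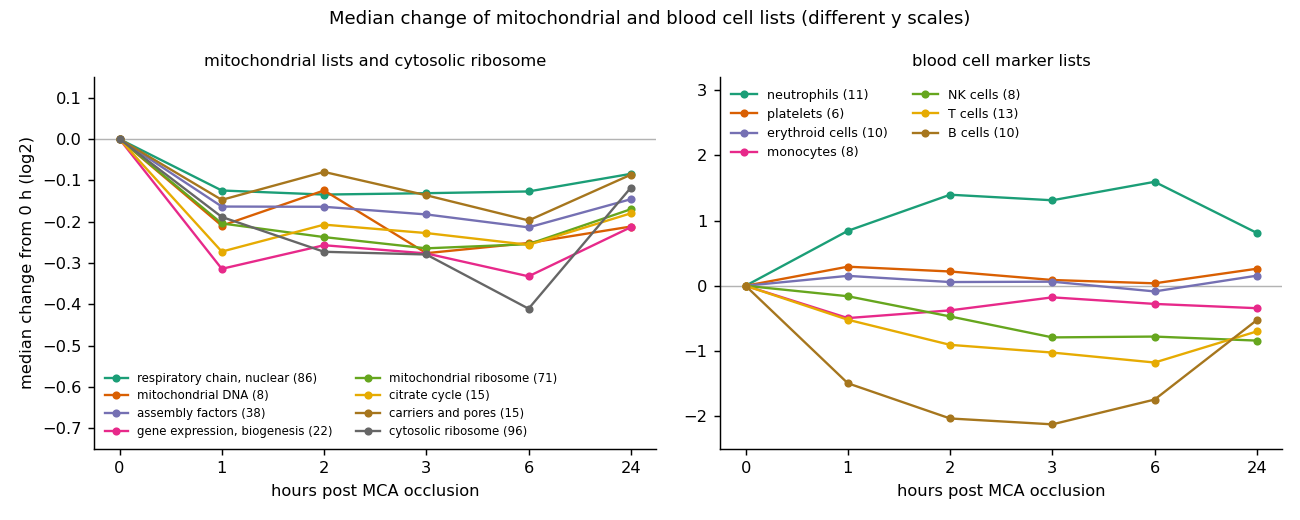
Median change from 0 h (log2) of the mitochondrial lists and the cytosolic ribosomal proteins (left) and of the blood cell marker lists (right) at 1, 2, 3, 6 and 24 h post MCA occlusion, with the number of genes or probe sets in parentheses and different y scales. The 86 members stayed between -0.13 and -0.08, and the neutrophil and B cell markers reached 1.59 and -2.13.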

How the data were processed

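Blood mRNA of 47 arrays at 6 time points was analysed. The deposited table holds, per probe set, the mean log2 RMA signal and its SD over the arrays of a time point, which the authors computed, with symbols and positions on rn5. It also holds 47 columns of single arrays, headed by numbers that no label ties to a rat and time point and that were not matched by their order, and the authors' fold changes, p-values, FDRs and F-tests. Neither was used. From the deposited log2 means, SDs and array numbers a linear model was rebuilt in R 4.3.3, and limma 3.58.1 gave moderated tests of each time point against 0 h, of neighbouring time points, and an F-test, with Benjamini-Hochberg adjustment over all 27596 probe sets. It was tested on simulated data. A gene was called at an FDR below 0.05. Named were 21 main subunits, tissue isoforms, the 4 largest called rises and falls at each time point, the 5 lowest F-test p-values, and the 2 largest called rises and falls of each list. Other genes named in the text, and the factors Gabpa, Yy1 and Nrf1, were chosen after their values were seen. The members, lists and tests were chosen with earlier results of these data known. All 86 symbols matched RefSeq, 70 directly and 16 by synonym. Promoter letters were searched in RefSeq sequences of GRCr8. The number of arrays limits the precision, and p-values take arrays of 1 rat as independent. Alternatives were an unmoderated test, an intensity trend, the spread of the 2 time points compared, centred or quantile normalized means, a filter on the lowest 25% of probe sets, no 24 h samples, and other choices of probe sets. The last, without shared, copied or displaced probe sets, and the background of similar signal were chosen after seeing the data. The result of 1 member is not reported here by name.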

Additional observations from a re-analysis of the deposited data

How the results depend on the processing

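Most counts of members kept within 1.5 times of their value under the alternatives run. After centring each time point on its median, 2 members were higher at 1 h, 2 at 24 h and 3 at 6 h. Over all probe sets 12.6% were then higher and 18.8% lower at 1 h. After quantile normalization of the means, 5 were higher at 2 h, 15 were lower at 3 h and 9 were lower at 24 h. With the spread of the 0 and 6 h arrays alone, 4 were higher at 6 h. The causes were not tested. Of the 42 named members, 8 lost and 1 gained the call at their largest change after quantile normalization, 2 lost and 1 gained it after centring, 3 lost it with the spread of 2 time points, and 1 gained it without the lowest 25% of probe sets. No named member changed direction under any alternative run. The medians of the members and of each complex moved by -0.05 to -0.03 after centring and by -0.03 to 0.09 after quantile normalization. The latter turned the sign of complex II at 6 h, of complex IV at 2 h and of complex V at 2 and 24 h (0.01 at each), and centring that of complex IV at 6 and 24 h (-0.02 at both). Without shared, copied or displaced probe sets, Atp5s and Atp5sl, 74 members were left, of which 43 passed the F-test. No count over all members moved by more than 1.5 times. By complex, the lower calls of complex V at 6 h went from 5 to 3, and the higher calls of complex III at 6 h from 2 to 1. No paired analysis was possible because the columns of single arrays are headed by numbers that no label ties to a rat and time point. They run from 1 to 48 without 17, which would be rat 3 at 6 h, the sample not collected, if arrays were numbered by rat and then time, but columns were not matched by order or values. Leaving out each rat was not run for the same reason. Although the same 8 rats were bled repeatedly, blocking by rat, detection above background and single outlying arrays were therefore not assessed.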
